A study of Mus musculus with 4 samples.

Results

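Glucose enters hepatocytes, the parenchymal cells of the liver, through a facilitative transporter and is committed to breakdown at 3 enzymatic steps. Each of those steps can be catalysed by a liver-type enzyme or by enzymes more typical of other tissues. The genes described here are 9 of the 22079 in the deposited table: the glucose transporter genes Slc2a1 and Slc2a2, the hexokinase genes Hk1 and Hk2, the phosphofructokinase genes Pfkl, Pfkm and Pfkp, and the pyruvate kinase genes Pklr and Pkm. They were selected by name from the pathway, with their levels in mutant and control libraries already known. The difference between genotypes in these genes is therefore given as a description, with no test. RNA was sequenced from primary hepatocytes of Prom1-/- mice (KO 1 and KO 2) and of wild-type mice (WT 1 and WT 2), 2 biological replicates per genotype. All mice were C57BL/6 males aged 8 weeks. Cells of both genotypes attached for 4 h in a medium with 10% serum, 23 mM HEPES and 10 nM dexamethasone, and were then held without serum overnight. No source used here gives the type of Prom1 allele, the tissues it deletes the gene from or the number of mice behind a library.

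The steps have well-known isozymes. GLUT2, the product of Slc2a2, is the low-affinity transporter of hepatocytes, whereas GLUT1, the product of Slc2a1, serves most other tissues. Hk1 and Hk2 encode high-affinity hexokinases, which phosphorylate glucose and are typical of tissues other than liver. Phosphofructokinase is a tetramer of liver (Pfkl), muscle (Pfkm) and platelet (Pfkp) type subunits, which can mix. Pyruvate kinase comes from Pklr in liver and red cells and from Pkm, spliced to the M1 or M2 form, elsewhere.

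Promoter windows are shown for Pklr and Slc2a1, which had higher levels in KO than in WT, and for Pfkl and Pkm, which had lower levels. They were picked with these levels known. Slc2a2, also higher in KO, and Pfkm and Pfkp, also lower, are not shown. Each window runs from 250 bases before to 50 bases after a RefSeq transcript start (GRCm38.p6, the assembly of mm10), and all 9 genes matched, with 15 windows in all. Capitals mark 4 short motifs on either strand: ACGTG and GCGTG, cores of the site bound by hypoxia-inducible factors, CACGTG, the E box, which contains ACGTG, and CACGGG, a half-site of the carbohydrate response element known from the rat liver pyruvate kinase gene. Pklr is shown at its downstream start (chr3:89136373-89136672, plus strand), the one known as the liver start. Pfkl is chr10:78009758-78010057 on the minus strand, Pkm is chr9:59656326-59656625 on the plus strand, and Slc2a1 is chr4:119108495-119108794 on the plus strand.
Pklr: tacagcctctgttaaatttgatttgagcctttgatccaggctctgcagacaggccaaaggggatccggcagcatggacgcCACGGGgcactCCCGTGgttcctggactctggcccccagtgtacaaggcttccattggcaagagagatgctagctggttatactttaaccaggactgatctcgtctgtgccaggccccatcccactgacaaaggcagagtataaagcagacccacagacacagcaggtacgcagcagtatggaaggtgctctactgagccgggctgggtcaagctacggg
Pfkl: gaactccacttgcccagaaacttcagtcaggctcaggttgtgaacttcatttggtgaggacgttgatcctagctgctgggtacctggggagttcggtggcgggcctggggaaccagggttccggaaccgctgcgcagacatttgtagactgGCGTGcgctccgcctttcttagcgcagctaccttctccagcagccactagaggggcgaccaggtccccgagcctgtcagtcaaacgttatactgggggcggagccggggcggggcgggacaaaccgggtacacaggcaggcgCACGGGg
Pkm: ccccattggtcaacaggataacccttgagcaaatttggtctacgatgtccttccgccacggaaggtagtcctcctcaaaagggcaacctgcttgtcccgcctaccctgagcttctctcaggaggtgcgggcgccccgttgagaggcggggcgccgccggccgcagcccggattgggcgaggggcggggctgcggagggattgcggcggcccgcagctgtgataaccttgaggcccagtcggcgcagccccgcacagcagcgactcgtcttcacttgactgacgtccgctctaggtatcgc
Slc2a1: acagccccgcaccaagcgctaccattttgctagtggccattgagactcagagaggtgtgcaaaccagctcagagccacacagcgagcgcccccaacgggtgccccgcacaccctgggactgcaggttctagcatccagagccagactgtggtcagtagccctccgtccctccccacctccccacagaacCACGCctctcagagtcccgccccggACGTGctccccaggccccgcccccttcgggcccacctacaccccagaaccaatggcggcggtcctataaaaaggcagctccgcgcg

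The Pklr window holds CACGGG on both strands with 5 bases between the copies, beginning 170 and 159 bases before the start. That exact arrangement occurred in 1 of 32851 promoter windows of the same length (0.00304%), which was this one. The half-site searched for is itself known from the rat form of this gene, and only exact copies were counted. The share is therefore no measure of how rare carbohydrate response elements are. CACGGG alone occurred in 10.1%. The paired arrangement was not in the window of the upstream Pklr start. Pfkl held GCGTG 99 bases before its start and CACGGG 43 bases after it. Slc2a1 held ACGTG 36 bases and GCGTG 61 bases before its start, and the Pkm window shown held none of the 4, which says only that these letters are absent there. The window of a second Pkm start held ACGTG 75 bases before and 8 bases after it. ACGTG occurred in 6 of the 15 windows (5 of the 9 genes) and GCGTG in 6 (5 of the 9 genes). Among all windows they occurred in 19.6% and 32.4%. CACGTG occurred in 1 of the 15, against 7.15%. Windows of a gene can overlap, and the Pfkm windows starting at 98108221 and 98108306 hold the same GCGTG site. A match of letters does not show that a factor binds.

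Levels are FPKM, fragment counts scaled to transcript length and library size, so genes can be compared with each other within a library. Differences are KO minus WT on the log2(FPKM + 1) scale, which understates the change of genes with low levels. The libraries were estimated to hold between 15400000 and 17500000 fragments. Prom1 itself had a value of 0 in KO 1 and of 0.0458 FPKM in KO 2, against 0.571 FPKM in WT 1 and 1.22 FPKM in WT 2. All 10 hepatocyte markers listed averaged 1 FPKM or more, and Apoa1, Ttr and Trf were at 1367 FPKM or more in each library. Albumin (Alb) was listed at 0 in WT 2, while it stood at 25550 FPKM or more in the other 3, so a value of 0 in this table can be a failed estimate. No gene passed the test across all genes: 0 of 10407 (0%) had an adjusted p under 0.05 by limma, while 759 had an unadjusted p under 0.05, 3.1% of those tested being higher and 4.19% lower in KO.

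Both glucose transporter genes were higher in the KO libraries. Slc2a1 (ENSMUSG00000028645) lies on the plus strand of chromosome 4, 119108711 to 119137983 in mm10. It stood at 47.6 FPKM in KO 1 and 55.6 FPKM in KO 2, against 42.5 FPKM in WT 1 and 40.1 FPKM in WT 2. The genotypes did not overlap, and the difference was 0.31 (SE 0.11). Slc2a2 (ENSMUSG00000027690; chromosome 3, plus strand, 28697903 to 28731359) stood at 15.1 FPKM in KO 1 and 19.5 FPKM in KO 2, against 11.3 FPKM in WT 1 and 13.7 FPKM in WT 2. The 2 genotypes were again apart, by 0.43 (SE 0.16). KO 2 carried much of these differences: without it they were 0.20 for Slc2a1 and 0.26 for Slc2a2. The transporter typical of other tissues was the more abundant of the pair in each library. The liver type made up 24.1% of their summed FPKM in KO 1, 26.0% in KO 2, 21.1% in WT 1 and 25.5% in WT 2, and these shares overlapped between genotypes. The sum of both was 68.9 ± 8.81 FPKM in KO and 53.8 ± 0.01 FPKM in WT (SD, n = 2).

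Hk1 and Hk2 were near the limit of measurement in both genotypes. Hk1 (ENSMUSG00000037012; chromosome 10, minus strand, 62268855 to 62379908) stood at 0.534 FPKM in KO 1 and 0.159 FPKM in KO 2, against 0.307 FPKM in WT 1 and 0.788 FPKM in WT 2. Hk2 (ENSMUSG00000000628; chromosome 6, minus strand, 82725025 to 82774454) stood at 0.526 FPKM in KO 1 and 0.528 FPKM in KO 2, against 0.244 FPKM in WT 1 and 0.958 FPKM in WT 2. For Hk2 both KO values lay between those of the WT libraries, and the genotypes overlapped for both genes. Their means over the 4 libraries were under 1 FPKM, so they were the 2 of the 9 genes left out by the filter on low values. Hk1 was estimated to rest on 10 to 52.4 fragments in a library and Hk2 on 22.7 to 83 fragments, taking the longest annotated transcript. The differences, -0.20 (SE 0.22) for Hk1 and -0.03 (SE 0.24) for Hk2, were no larger than their errors. The share of Hk2 in their sum overlapped as well, at 49.6% and 76.8% in KO 1 and KO 2, against 44.2% and 54.9% in WT 1 and WT 2.

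**Figure D1:**
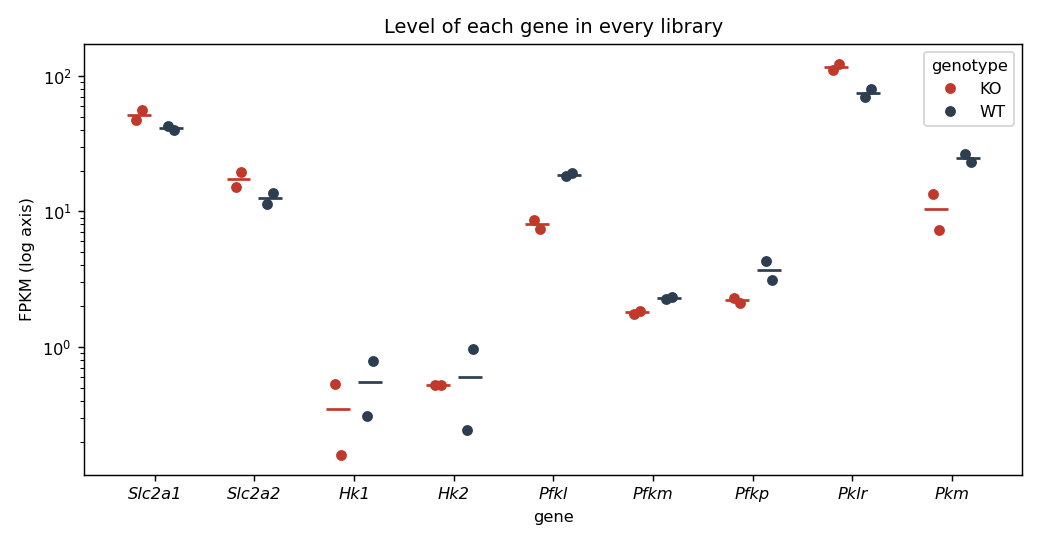
Level of the 9 genes in FPKM (log axis) in each library, with KO left of WT, points for libraries and bars for the mean of 2. Pfkl and Pkm lie lower and Pklr lies higher in both KO libraries, and Hk1 and Hk2 overlap between genotypes.

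All 3 phosphofructokinase genes were lower in the KO libraries, and the liver type most. Pfkl (ENSMUSG00000020277; chromosome 10, minus strand, 77986947 to 78010083) stood at 8.68 FPKM in KO 1 and 7.42 FPKM in KO 2, against 18.3 FPKM in WT 1 and 19.1 FPKM in WT 2. The mean was 8.05 ± 0.889 FPKM in KO and 18.7 ± 0.551 FPKM in WT (SD, n = 2), which is 2.32 times as high in WT. The 2 libraries of a genotype were close to each other, and the difference of -1.12 (SE 0.12) stayed between -1.23 and -1.02 with any 1 library left out. Pfkp (ENSMUSG00000021196; chromosome 13, minus strand, 6579768 to 6648777) stood at 2.29 FPKM in KO 1 and 2.13 FPKM in KO 2, against 4.29 FPKM in WT 1 and 3.14 FPKM in WT 2, a difference of -0.54 (SE 0.18). Pfkm (ENSMUSG00000033065; chromosome 15, plus strand, 98092589 to 98132451) stood at 1.76 FPKM in KO 1 and 1.84 FPKM in KO 2, against 2.28 FPKM in WT 1 and 2.35 FPKM in WT 2. Its difference, -0.24 (SE 0.16), was the smallest of the family, although the genotypes did not overlap.

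The summed phosphofructokinase RNA was also lower in KO. The 3 genes summed to 12.7 FPKM in KO 1 and 11.4 FPKM in KO 2, against 24.9 FPKM in WT 1 and 24.6 FPKM in WT 2. Pfkl remained the main subunit in each library but took a smaller share of the sum in KO, 68.2% in KO 1 and 65.1% in KO 2, against 73.6% in WT 1 and 77.7% in WT 2. The shares did not overlap and their means differed by -8.97 percentage points.

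The pyruvate kinase genes went opposite ways. Pklr (ENSMUSG00000041237; chromosome 3, plus strand, 89136142 to 89146784) was the most abundant of the 9 genes in each library. Its liver start is the one with the paired CACGGG copies. It stood at 110.2 FPKM in KO 1 and 123 FPKM in KO 2, against 69.7 FPKM in WT 1 and 80.4 FPKM in WT 2. Both KO libraries were higher, with means of 116.6 ± 9.05 FPKM in KO and 75.1 ± 7.53 FPKM in WT (SD, n = 2), 1.55 times as high in KO, and a difference of 0.63 (SE 0.12). Pkm (ENSMUSG00000032294; chromosome 9, plus strand, 59656368 to 59679375) stood at 13.4 FPKM in KO 1 and 7.25 FPKM in KO 2, against 26.4 FPKM in WT 1 and 23.2 FPKM in WT 2. Both KO libraries were lower, and they were the farther apart of the 2 pairs, with means of 10.3 ± 4.36 FPKM in KO and 24.8 ± 2.23 FPKM in WT (SD, n = 2). The difference for Pkm was -1.24 (SE 0.26), and it was -1.64 without KO 1 and -0.84 without KO 2.

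The balance within the pyruvate kinase family separated the genotypes. There were 8.22 FPKM of Pklr for each FPKM of Pkm in KO 1 and 17 in KO 2, against 2.65 in WT 1 and 3.46 in WT 2. Pklr accordingly took 89.2% of the family sum in KO 1 and 94.4% in KO 2, against 72.6% in WT 1 and 77.6% in WT 2. The means differed by 16.7 percentage points, 14.1 to 19.4 with any 1 library left out. The family sum was 127 ± 4.69 FPKM in KO and 99.8 ± 5.3 FPKM in WT (SD, n = 2). The liver isozyme therefore took a larger share of pyruvate kinase RNA and a smaller share of phosphofructokinase RNA in KO, with no separation among the glucose transporters.

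**Figure D2:**
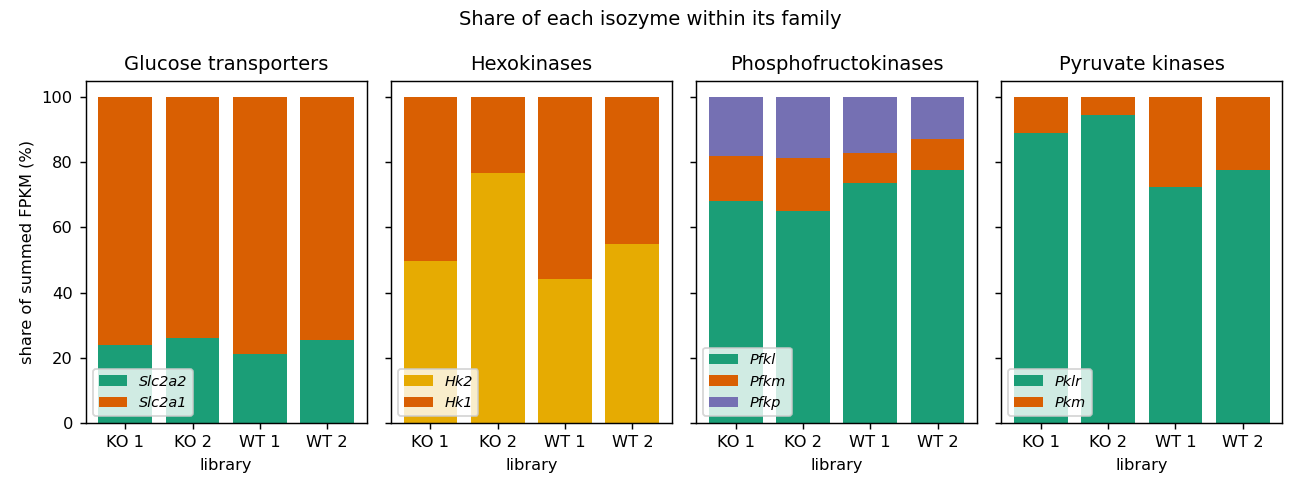
Share of each isozyme in the summed FPKM of its family (%), by library, KO left of WT. The liver type Pklr makes up 89.2% and 94.4% of pyruvate kinase in KO 1 and KO 2, against 72.6% and 77.6% in WT 1 and WT 2, while Pfkl shares are lower in KO.

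Counted over the 9 genes, each KO value exceeded each WT value for 3 (Slc2a1, Slc2a2 and Pklr), each KO value was below each WT value for 4 (Pfkl, Pfkm, Pfkp and Pkm) and the genotypes overlapped for 2 (Hk1 and Hk2). Over all 10407 genes tested, KO exceeded WT in this way for 18.3% and was below it for 19.8%; the 9 genes were chosen with this known, so nothing is read from their count. The order of levels within a genotype differed in its middle part. In KO the order was Pklr, Slc2a1, Slc2a2, Pkm, Pfkl, Pfkp, Pfkm, Hk2 and Hk1, with overlapping libraries between Pkm and Pfkl and between Hk2 and Hk1. In WT, Slc2a2 stood below Pkm and Pfkl, and only the neighbours Hk2 and Hk1 overlapped.

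**Figure D3:**
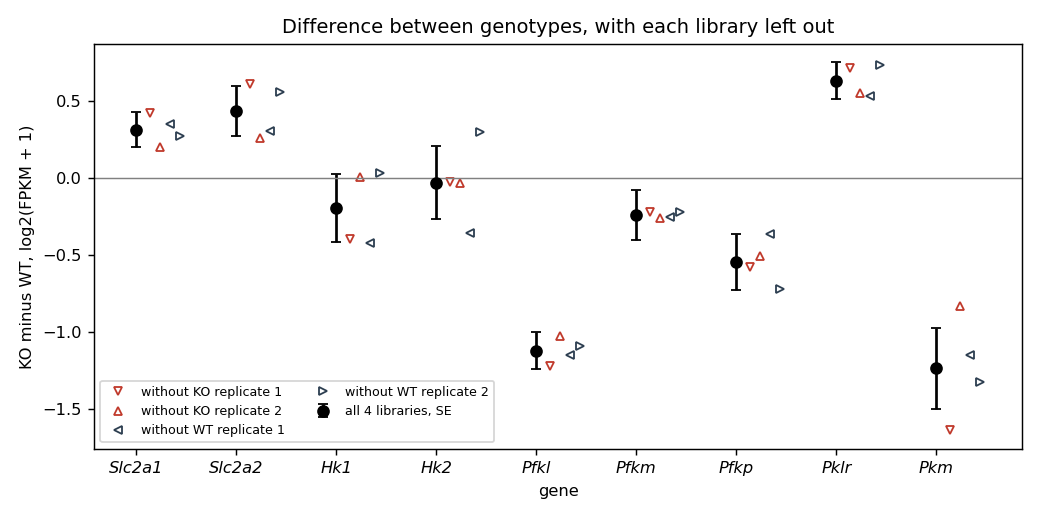
KO minus WT difference in log2(FPKM + 1) for the 9 genes, with all 4 libraries (black points, bars of 1 SE) and with each library left out (open triangles). Pfkl stays between -1.23 and -1.02, Pkm ranges from -1.64 to -0.84, and Hk1 and Hk2 cross 0.

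How firmly a level belongs to its gene differed among the 9. The annotation places the opposite-strand gene Hcn3 on part of Pklr, and 20.5% of the 50-base stretches of Pklr transcripts also occur in Hcn3. Hcn3 was low, at 0.287 FPKM in KO 1 and 0.81 FPKM in KO 2, against 0.188 FPKM in WT 1 and 0.312 FPKM in WT 2. Of the 50-base stretches of Pkm transcripts, 25.8% occur in 8 other annotated genes, 12.1% in the overlapping same-strand model Gm49759 alone. Pfkp shares 5.1% with the opposite-strand gene Pitrm1, which was more abundant than Pfkp (13.3 ± 1.34 FPKM in KO and 15.5 ± 1.45 FPKM in WT; SD, n = 2). Pfkm shares 8.83% with the same-strand model Gm26513. Pfkl shared 0.03%, and Slc2a2 and Hk2 shared none. The library kit keeps strand, but the strand setting used in counting is not given. The table has 1 value per gene, so the M1 and M2 forms of Pkm, and the liver and red-cell forms of Pklr, cannot be told apart.

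Of the other glycolytic enzymes, 10 of 14 listed passed the filter on low values, and all 10 had lower means in KO. Their median difference was -0.44, against 0.00 over all genes tested. None passed the test over all genes (lowest limma adjusted p = 0.518), 7 were lower at an unadjusted p under 0.05, and 9 had each KO value below each WT value (19.8% of all genes tested). Gpi1, which converts glucose 6-phosphate to fructose 6-phosphate, stood at 85.6 FPKM in KO 1 and 109 FPKM in KO 2, against 149.8 FPKM in WT 1 and 151.8 FPKM in WT 2 (-0.64). Tpi1, the triose phosphate isomerase, averaged 226.5 ± 40.4 FPKM in KO and 318.9 ± 12.2 FPKM in WT (-0.50, and -0.32 without KO 1). Ldha, the lactate dehydrogenase subunit, averaged 268.2 ± 6.88 FPKM in KO and 377 ± 29.4 FPKM in WT (-0.49). Eno1, the main enolase, averaged 203.7 ± 9.01 FPKM in KO and 281.9 ± 3.39 FPKM in WT (-0.47; all SD, n = 2). Aldoa, the aldolase of muscle and most tissues, stood at 150.7 FPKM in KO 1 and 139.7 FPKM in KO 2, against 189.2 FPKM in WT 1 and 183.1 FPKM in WT 2 (-0.36). Pklr, higher in KO, lay opposite to each tested enzyme of this list.

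**Figure D4:**
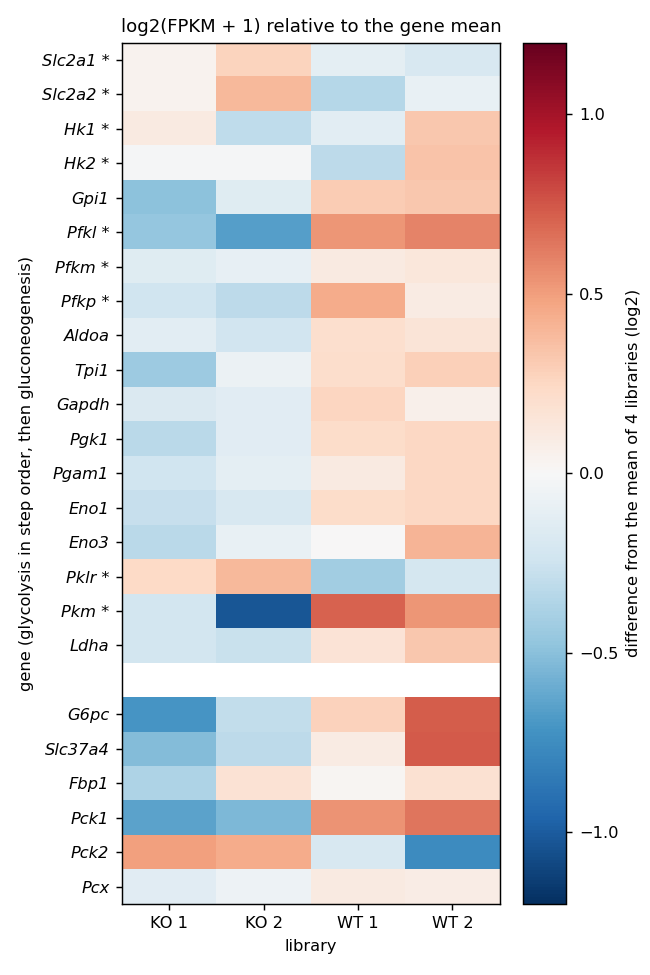
log2(FPKM + 1) in each library minus the average of that gene across all 4, for enzymes and transporters of glycolysis in step order and gluconeogenic genes below it; asterisks mark the 9 genes. Pklr, Slc2a1, Slc2a2 and the gluconeogenic Pck2 are higher in both KO libraries. Hk1, Hk2 and Fbp1 overlap between genotypes, and the other genes shown, Pfkl and Pkm among them, are lower in both.

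The enzymes that make or remove fructose 2,6-bisphosphate, the strongest activator of phosphofructokinase, were also measured. Of the 5 listed, 4 were tested and none was called (lowest limma adjusted p = 0.614), with 2 lower at an unadjusted p under 0.05 and a median of -0.27. Pfkfb3 averaged 3.15 ± 0.0495 FPKM in KO and 4.51 ± 0.0611 FPKM in WT (SD, n = 2; -0.41). Pfkfb2 averaged 7.06 ± 0.201 FPKM in KO and 11.3 ± 3.86 FPKM in WT (SD, n = 2), and its difference of -0.58 was -0.25 without WT 2 and -0.90 without WT 1. Pfkfb1, the liver form, and Tigar, a phosphatase that removes the activator, overlapped between genotypes. Among relatives of the transporters and hexokinases, 5 of 14 were tested and none was called (lowest limma adjusted p = 0.66); 1 was lower at an unadjusted p under 0.05, and the median was 0.12. Adpgk, which phosphorylates glucose with ADP, and the transporter Slc2a8 were higher in both KO libraries, by 0.21 and 0.12.

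Of 8 enzymes that run against these steps in gluconeogenesis 7 were tested, with a median difference of -0.20. None was called (lowest limma adjusted p = 0.239), 3 were lower and 1 higher at an unadjusted p under 0.05. G6pc, which opposes glucose phosphorylation, stood at 0.608 FPKM in KO 1 and 1.15 FPKM in KO 2, against 2.2 FPKM in WT 1 and 3.35 FPKM in WT 2 (-1.004). Slc37a4, which carries its substrate into the endoplasmic reticulum, differed by -0.83, and by -0.51 without WT 2. Fbp1, which opposes phosphofructokinase, overlapped between genotypes (26.6 ± 7.22 FPKM in KO and 30.2 ± 2.41 FPKM in WT; SD, n = 2). The carboxykinases that oppose pyruvate kinase lay apart in opposite directions. The cytosolic Pck1 averaged 6.66 ± 0.399 FPKM in KO and 16.3 ± 0.859 FPKM in WT (-1.18), and the mitochondrial Pck2 averaged 21.9 ± 0.519 FPKM in KO and 11.1 ± 3.3 FPKM in WT (SD, n = 2; 0.94).

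Most factors known to regulate the liver isozymes had lower means in KO, with a median difference of -0.11. Of 13 tested none was called (lowest limma adjusted p = 0.47), and 2 were lower at an unadjusted p under 0.05. Means were lower in KO for 10 and higher for 3. Each KO value was below each WT value for 5 and above for 1, against 19.8% and 18.3% of all genes tested. Mlxipl, which encodes the carbohydrate response factor ChREBP that acts on Pklr, overlapped (101.6 ± 2.67 FPKM in KO and 110.1 ± 13.1 FPKM in WT; SD, n = 2). Hnf4a, a nuclear receptor of the hepatocyte lineage and also on the hepatocyte marker list, stood at 64.9 FPKM in KO 1 and 59.5 FPKM in KO 2, against 90.4 FPKM in WT 1 and 95.8 FPKM in WT 2 (-0.58). Foxo1, a factor restrained by insulin signalling, differed by -0.51 (-0.30 without KO 2). Mlxip, a relative of Mlxipl, differed by -0.30 (-0.18 without WT 2 and -0.16 without KO 2) and Foxa2, a forkhead factor of the liver, by -0.19 (-0.02 without KO 2). Other targets of the carbohydrate response lay on both sides: of 13 tested, 7 had higher and 6 lower means in KO, with a median of 0.01, and none was called (lowest limma adjusted p = 0.682). Txnip, the classic target, averaged 3.36 ± 1.44 FPKM in KO and 5.59 ± 0.816 FPKM in WT (-0.63; -0.29 without KO 2 and -0.98 without KO 1), the 1 target at an unadjusted p under 0.05. Scd1, a fatty acid desaturase, was higher in KO, at 947.7 ± 64.9 FPKM, against 631.9 ± 279 FPKM in WT (SD, n = 2; 0.66, or 0.19 without WT 2 and 1.12 without WT 1). Elovl6, a fatty acid elongase, and G6pdx, the first enzyme of the pentose phosphate pathway, at 0.31 and -0.32, overlapped between genotypes.

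Regulators of the isozymes of other tissues also lay on both sides, with a median of 0.11. Of 5 tested none was called (lowest limma adjusted p = 0.562), and 2 were lower at an unadjusted p under 0.05. Hif1a, the hypoxia-inducible factor subunit known to act on glycolytic genes, stood at 23.3 FPKM in KO 1 and 31.4 FPKM in KO 2, against 21.4 FPKM in both WT 1 and WT 2 (0.32, or 0.12 without KO 2 and 0.53 without KO 1). Its relative Epas1 averaged 10.9 ± 1.48 FPKM in KO and 15.9 ± 1.71 FPKM in WT (-0.51), and their partner Arnt 17.8 ± 0.368 FPKM in KO and 22.0 ± 0.236 FPKM in WT (SD, n = 2; -0.29). Myc differed by 0.17. Splicing factors that set the M1 to M2 choice of Pkm were close between genotypes, with 6 tested, none called (lowest limma adjusted p = 0.66) and 1 lower at an unadjusted p under 0.05. Ptbp1 averaged 121.2 ± 8.67 FPKM in KO and 120.1 ± 1.81 FPKM in WT (SD, n = 2; 0.01), Hnrnpa1 differed by 0.14 and Rbm4 by -0.02. Rbm4b, at -0.43, was the 1 factor whose genotypes did not overlap.

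Bulk RNA cannot separate fewer cells of a type from less RNA per cell, and several of the 9 genes are also expressed outside hepatocytes. Of the 10 hepatocyte markers listed, each KO value was below each WT value for 3 (Trf, Tat and Hnf4a) and above for 0. Over all genes tested these shares were 19.8% and 18.3%. Markers of macrophages and Kupffer cells, 8 of 10 with a mean of 1 FPKM or more, summed to 417.1 FPKM in KO 1 and 489.7 FPKM in KO 2, against 374.2 FPKM in WT 1 and 370.4 FPKM in WT 2. Most of that was Cd68; without it the sums were 24.3 and 24.4 FPKM in KO 1 and KO 2, against 16.9 and 19.6 FPKM in WT 1 and WT 2. Of the 10, each KO value exceeded each WT value for 5 (Adgre1, Cd5l, Vsig4, Cd68 and Marco), against 18.3% of all genes tested. Vsig4 was at 0.49 FPKM or less in each library. C1qa was lower in both KO libraries, and the other 4 overlapped. Sinusoidal endothelial markers, 9 of 10 with a mean of 1 FPKM or more, summed to 82.5 FPKM in KO 1 and 43.2 FPKM in KO 2, against 58.5 FPKM in WT 1 and 56.1 FPKM in WT 2. Stellate and fibroblast markers, 2 of 10 at that level, summed to 24.9 FPKM in KO 1 and 10.8 FPKM in KO 2, against 14.2 FPKM in WT 1 and 16.4 FPKM in WT 2. Both sums were highest in KO 1 and lowest in KO 2, although the stellate sum without Dcn was highest in WT 2 (7.42 and 3.79 FPKM in KO 1 and KO 2, against 5.86 and 8.05 FPKM in WT 1 and WT 2). Within KO, Pkm was also higher in KO 1 (13.4 FPKM in KO 1 and 7.25 FPKM in KO 2). The part of these cells, macrophages included, in the levels of Pkm was not tested. Cholangiocyte markers, 2 of 8 at that level, summed to 37.7 FPKM in KO 1 and 24.4 FPKM in KO 2, against 36.4 FPKM in WT 1 and 33.9 FPKM in WT 2. Pklr is also a red-cell gene. Of 7 red-cell markers, Alas2, an enzyme of heme synthesis in red-cell precursors, stood at 5.94 FPKM in KO 1 and 8.28 FPKM in KO 2, against 6.25 FPKM in WT 1 and 5.70 FPKM in WT 2. The globin genes Hba-a2 and Hbb-bs were at 0.661 FPKM or less, and 4 markers, Slc4a1, Hba-a1 and Hbb-bt among them, were listed at 0 in each library, which in this table can be a failed estimate. The part of red cells in the levels of Pklr was not tested. Of 8 other leukocyte markers, 5 were listed at 0 in each library and all 8 summed to at most 1.25 FPKM.

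**Figure D5:**
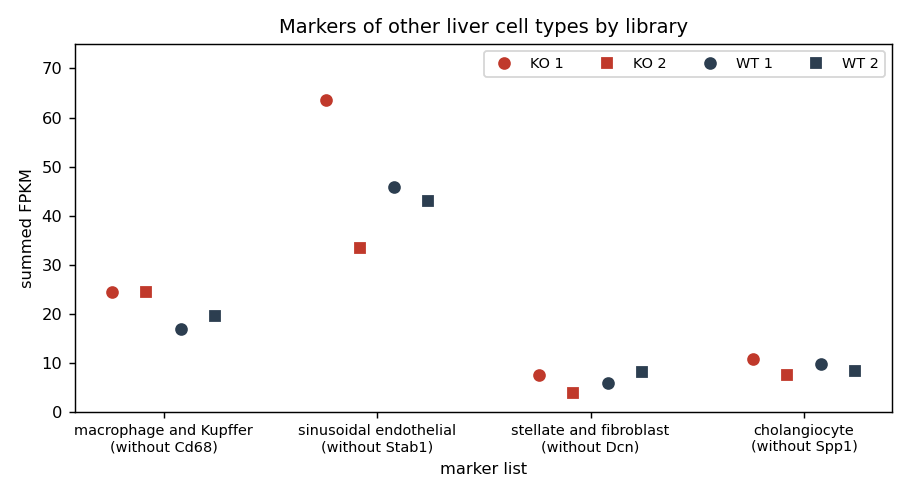
Summed FPKM of marker genes of 4 other liver cell types in each library, KO left of WT, each list without its most abundant gene. Macrophage sums are higher in both KO libraries, with 5 of 10 markers apart in that direction, against 18.3% of all genes tested. Endothelial and stellate sums are lowest in KO 2.

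Genes with profiles most like those of 4 of the 9 were found by the Euclidean distance between centred log2(FPKM + 1) profiles over the 4 libraries. Ankrd37 (distance 0.10), Rrm2 (0.14) and Slc10a6 (0.22) were nearest to Pfkl, whose own distance from a flat profile was 1.13. Nearest to Pkm were Ppp2r3d (0.38), Ankrd37 (0.38) and Slc16a3 (0.43), farther away than the neighbours of the other 3. Ankrd1 (0.10), Gchfr (0.10) and Isy1 (0.12) were nearest to Pklr, and Agmo (0.03), Mylpf (0.08) and Slc13a5 (0.08) to Slc2a2. Within a distance of 0.2 there were 2 genes for Pfkl, 0 for Pkm, 20 for Pklr and 55 for Slc2a2. A likeness over 4 libraries is a description of these libraries.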

How the data were processed

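The authors deposited a gene table with 1 column per library, read here as FPKM because Cufflinks is named, with Cuffdiff 2.2.1, STAR 2.5.0 and the mm10 build, in the submitters' processing notes and the values are not whole; no header states the unit. The annotation, the strand setting and each tool's role were not given in the sources used here. Of 22079 gene identifiers, 21984 matched a GENCODE M21 symbol; where a symbol had more than 1, the more abundant was used. Depth was estimated from the lowest values of genes with 1 annotated transcript, assuming fragments of 200 bases, and is approximate.

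Genes averaging 1 FPKM or more were compared by genotype alone, two-sided, with limma 3.58.1 in R 4.3.3 on log2(FPKM + 1), with an intensity trend; calls were made at 0.05 after Benjamini-Hochberg adjustment. SD measures the spread between the 2 libraries of a genotype. The SE and p-values of limma rest on a variance drawn toward a trend over all genes. They therefore do not measure the spread of a single gene's libraries alone. The smallest two-sided p of an exact permutation test with 2 libraries per genotype is 0.333. SE values are limma's; those of Hk1 and Hk2 come from the same model without the filter. Python 3.11.15 with pandas 2.3.3 made the summaries. The 9 genes, the 8 pathway lists and the 7 marker lists were chosen with earlier results of these data known. Named list genes are the up to 4 tested with the largest absolute difference; Aldoa, Fbp1, Mlxipl and genes named for overlap or as markers of the libraries are given for their role. Some genes of the lists, and the shares that use them, are not reported here. Profile neighbours leave out unnamed gene models. Alternatives tried were a pseudocount of 0.1, a filter at 5 FPKM or none, rescaling, no trend, a replicate block and each library left out.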

Additional observations from a re-analysis of the deposited data

How the results depend on the processing

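With each library left out in turn, the number of genes with an adjusted p under 0.05 by limma ran from 0 (without WT 2 or KO 2) to 8 (without WT 1), with 5 without KO 1, and the number at an unadjusted p under 0.05 from 318 (without WT 2) to 1227 (without KO 2), against 759 with all libraries. Pathway list members called were 0 of 63 under each alternative run; 20 reached an unadjusted p under 0.05 with all libraries, and 8 (without WT 2) to 19 (without KO 2) with 1 left out. The differences of Slc2a1, Slc2a2, Pfkl, Pfkm, Pfkp, Pklr and Pkm kept their sign under each alternative run. Hk1 ranged from -0.423 to 0.0285 (0.00471 without KO 2) and Hk2 from -0.359 to 0.296 with 1 library left out, and with a pseudocount of 0.1 they were -0.569 and 0.0557. The share of Slc2a2 differed by 1.76 percentage points, and by -0.436 to 3.96 with 1 library left out. The cause was not tested. The shares of Pfkl and Pklr kept their direction. Replicate numbers are shared by the genotypes, but no label says that they pair libraries, and the correlation of same-numbered deviations was 0.151; with a replicate block, 0 genes were called and 1054 reached an unadjusted p under 0.05. Rescaling to a common total was added for the gene counts after seeing the data. Depth limits Hk1 and Hk2.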

Other observations

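Several relatives of the 9 genes lay under the filter of 1 FPKM and were not tested. They are named after their values were seen. Aldoc, the brain-type aldolase, stood at 0.858 FPKM in KO 1 and 1.05 FPKM in KO 2, against 0.571 FPKM in WT 1 and 0.712 FPKM in WT 2. Eno2, the neuronal enolase, stood at 0.376 FPKM in KO 1 and 0.211 FPKM in KO 2, against 0.0816 FPKM in WT 1 and 0.128 FPKM in WT 2. Ldhb, the heart-type lactate dehydrogenase subunit, stood at 0.385 FPKM in KO 1 and 0.211 FPKM in KO 2, against 0.164 FPKM in WT 1 and 0.105 FPKM in WT 2. Pfkfb4 stood at 0.727 FPKM in KO 1 and 0.256 FPKM in KO 2, against 0.232 FPKM in WT 1 and 0.119 FPKM in WT 2. All 4 were higher in both KO libraries, whereas Aldoa, Eno1, Ldha and Pfkfb3, the more abundant forms, were lower in both. Over all genes tested, 18.3% were higher in both KO libraries, and nothing is read from a count of genes picked this way. Among other listed relatives under the filter, Slc2a6 and Slc2a13 were also higher in both KO libraries. Slc2a3, Slc2a4, Slc2a5, Slc2a10, Slc2a12, Hk3, Hkdc1 and Fbp2 overlapped between genotypes. At these levels a gene rests on few fragments, and the differences were not tested.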
